A study of Mus musculus with 2 samples.

Results

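The 8 genes described here belong to interleukin-1 (IL-1) signalling and tryptophan breakdown and were followed across the cell classes of the mouse mammary gland. They were the ligand genes Il33, Il1a, Il1b and Il18, the antagonist gene Il1rn, the receptor genes Il1r1 and Il1rl1, and the enzyme gene Ido1. All 8 were found by symbol among the 31053 genes counted. They had been picked for their values in these same libraries, so their levels are given as descriptions and carry no test.

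Single mammary cells enriched by flow sorting from C57BL/6 mice were sequenced in 2 libraries, 1 per group. The Ctrl library came from miR-200c/141-flox/flox mice, in which both copies of the miR-200c/141 locus are flanked by loxP sites and the label names no Cre. The cKO library came from K8-CreERT2;miR-200c/141-flox/flox mice, in which the promoter of the luminal keratin gene Krt8 drives a Cre that tamoxifen switches on, so deletion was directed at cells that express Krt8. Both groups were given tamoxifen at 8 to 10 weeks of age and harvested 4 weeks later, while a further label gives an age of 8 weeks for both. The number of mice behind a library is not stated, and with 1 library per group a difference between genotypes cannot be told apart from a difference between mice, dissociations or sorts. Intervals below are 95% intervals for counting error alone. The deletion itself was not checked here, since counts of messenger RNA 3′ ends do not read mature microRNAs.

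The IL-1 family is a group of cytokines of barrier and immune tissues. IL-1α (Il1a) and IL-1β (Il1b) act through the receptor encoded by Il1r1, and the product of Il1rn occupies that receptor without signalling. IL-33, held in the nucleus of epithelial, endothelial and stromal cells and released when they are damaged, acts through ST2, the product of Il1rl1, on group 2 innate lymphoid cells, mast cells and regulatory T cells. IL-18 has a receptor of its own, encoded by Il18r1 and Il18rap. Receptors of the family signal through MyD88 and IRAK kinases. Ido1 encodes indoleamine 2,3-dioxygenase 1, which opens the ring of tryptophan at the start of the kynurenine pathway and is a classic target of interferon gamma.

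After filtering, 3391 Ctrl cells with a median of 19812 unique molecular identifiers (UMIs, counted RNA molecules) and 5435 cKO cells with a median of 13917 remained, and 5 cell barcodes occurred in both libraries. Cells were put into classes by marker scores. Hormone-sensing-like cells, the luminal cells that carry estrogen, progesterone and prolactin receptors, numbered 519 in Ctrl and 1211 in cKO. Luminal-progenitor-like cells, with the alveolar program, numbered 674 and 1087, and basal-like cells, the contractile layer, 1078 and 974. A further 942 and 1482 luminal cells passed both luminal scores and are called both-marker cells. Their median depth was 47279 and 27460 UMIs, above the 20492 and 12404 UMIs of hormone-sensing-like cells, and the part of cell pairs in them was not tested. The classes are ranges of a score, and 7.32% and 6.61% of hormone-sensing-like cells lay within 0.1 of a cutoff. Hormone-sensing-like cells fell mostly into cluster 3 in Ctrl (503 cells) and into clusters 10 (952 cells) and 11 (181 cells) in cKO, whereas luminal-progenitor-like cells of both libraries fell mostly into cluster 2 (664 and 1048 cells). Of the both-marker cells, 867 of the Ctrl library were in cluster 6, while 1246 of the cKO library were in cluster 5. None of the 10 genes with the highest fold in the hormone-sensing-like cells of either library was a listed hormone-sensing marker, and in Ctrl 1 of them, Hba-a1, was a listed red blood cell marker at 9.72 UMIs per 1000000.

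The deleted locus on chromosome 6 (minus strand) encodes 2 microRNAs with different seeds, the bases 2 to 8 through which a microRNA finds its targets. Their mature RefSeq sequences (GRCm38.p6, chr6:124718324-124718346 and chr6:124717917-124717938) are shown with the seed in capitals, because the sites searched in the members derive from them.
miR-200c-3p: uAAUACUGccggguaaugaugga
miR-141-3p: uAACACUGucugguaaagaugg
Their seeds are shared with miR-200b-3p and miR-429-3p, and with miR-200a-3p, which lie outside the deleted locus.

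A 7-base match to a seed was found once in 4 of the 8 members, searched over the longest 3′ untranslated region on record (GENCODE M21, GRCm38). Il33, Il1a and Il1r1 held CAGTGTT, the match of miR-141-3p, and Il1rl1 held CAGTATT, the match of miR-200c-3p. The sites are printed with 10 bases on each side and the match in capitals.
Il33, chr19:29960598-29960604 (+): ctggaaaccaCAGTGTTgactctgtga
Il1a, chr2:129299717-129299723 (-): agaatgtaatCAGTGTTtcccctggat
Il1r1, chr1:40315908-40315914 (+): tattaatcgcCAGTGTTtaaaactggt
Il1rl1, chr1:40463144-40463150 (+): tttgtcaagtCAGTATTaacagatttg
Of 21004 genes with an annotated 3′ untranslated region, 17.2% held the miR-141-3p match, 13.3% the miR-200c-3p match and 25.8% either. The regions of all 4 members with a match, Il33, Il1a, Il1r1 and Il1rl1 (1677, 1101, 3864 and 3246 bases), were longer than the median of 961 bases. Ido1, with the shortest region of the members (266 bases), Il18 (334 bases), Il1b (459 bases) and Il1rn (1864 bases) held no match. A match is a description of the letters and no measure of regulation. On the same build Il1a (chr2:129299610-129309972) and Il1b (chr2:129364570-129371139) lie on the minus strand and Il1rn (chr2:24336853-24351494) on the plus strand of chromosome 2. Il1r1 (chr1:40225080-40317257) and Il1rl1 (chr1:40429570-40465415) are on the plus strand of chromosome 1, Il18 (chr9:50554827-50581840) on the plus strand of chromosome 9, and Ido1 (chr8:24584136-24597009) on the minus strand of chromosome 8.

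Il33, the alarmin gene, spans chr19:29925114-29960718 on the plus strand and has 2 RefSeq starts. The 250 bases before each start are shown because Il33 was highest, among luminal cells, in those with genes of motile cilia, and capitals mark the motif matches found.
Il33, chr19:29924863-29925112 (+): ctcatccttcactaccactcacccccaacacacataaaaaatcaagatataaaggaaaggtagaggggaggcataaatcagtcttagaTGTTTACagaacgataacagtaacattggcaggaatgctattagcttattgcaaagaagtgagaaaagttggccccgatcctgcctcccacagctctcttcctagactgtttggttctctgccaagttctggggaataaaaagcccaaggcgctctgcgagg
Il33, chr19:29945540-29945789 (+): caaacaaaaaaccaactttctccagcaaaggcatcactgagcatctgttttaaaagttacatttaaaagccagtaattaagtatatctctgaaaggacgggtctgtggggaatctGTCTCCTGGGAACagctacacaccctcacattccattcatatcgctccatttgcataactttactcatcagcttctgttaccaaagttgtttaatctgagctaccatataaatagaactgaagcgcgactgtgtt
The window before the upstream start held a forkhead motif, TGTTTAC, 162 to 156 bases before the start, a motif present on either strand of 3.17% of 32851 promoter windows of that length. The window before the internal start held an X-box motif, GTTNCC followed directly by NNGNNAC, the kind bound by RFX factors, on the minus strand 135 to 123 bases before the start, and 1.29% of windows held it. In all, 7 motifs were searched on both strands in the 12 windows of 7 members, all but Ido1. The interferon-stimulated response element GAAANN followed directly by GAAA (2.98% of all windows), the gamma-activated site TTCNNNGAA (7.02%) and the E-box CACCTG (17.22%) had no match in these 12 windows. The NF-kappa-B motif GGGANN followed directly by NNCC (17.63%) occurred before Il1rn, the AP-1 motif TGANTCA (6.75%) before Il1rn and Il1a, and a forkhead motif also before Il1rl1. Matches are letters in a window and not measured binding.

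Il33 was far higher in the hormone-sensing-like cells of cKO than in those of Ctrl. It stood at 1.72 UMIs per 1000000 UMIs of the class (CPM, interval 1.05 to 2.66, 20 UMIs) in Ctrl and 103 CPM (97.9 to 108, 1706 UMIs) in cKO, a ratio of 59.7 (38.5 to 98.0). In Ctrl the 20 UMIs came from 8 of 519 cells, and 1 cell alone held 8 of them. In cKO 280 of 1211 cells (23.1%) held Il33, at up to 64 UMIs in a cell, and the tenth of cells with the most Il33 held 85.0% of its UMIs. After each cell was thinned to 1000 UMIs, 0.193% of Ctrl cells (0.00490 to 1.07) and 6.97% of cKO cells (5.60 to 8.56) held an Il33 UMI, against 0.276% of luminal-progenitor-like and 0.206% of basal-like cells of cKO. Il33 was thus detected in a minority of cKO hormone-sensing-like cells, and the ratio depended on which were kept: the log2 ratio of 5.90 was 4.41 without cells with cilia genes and 8.77 without the 1% of cells with the most Il33 in each library. The last setting takes out most of the 8 Ctrl cells with Il33, so its ratio rests on very few Ctrl UMIs.

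Il33 was not confined to hormone-sensing-like cells. Both-marker cells held 2.28 CPM (1.87 to 2.74) in Ctrl against 40.0 CPM (38.3 to 41.9) in cKO, and 55 of the 110 Ctrl UMIs lay in 1 cell. In pairs of values given without a library name, here and below, Ctrl precedes cKO. Luminal-progenitor-like cells were at 0.190 and 3.09 CPM, and basal-like cells at 0.236 and 2.19 CPM, with 3 Il33 UMIs in Ctrl in each of these classes. Of the 49 Il33 UMIs in cKO luminal-progenitor-like cells, 23 lay in the 1048 cells of cluster 2 (1.56 CPM). A further 9 lay in 23 cells of cluster 5 (14.6 CPM). The log2 ratio of 4.03 in luminal-progenitor-like cells ranged from 2.75 with the stricter marker gate to 4.57 with every cell weighted equally. Blood-endothelial-like cells held no Il33 UMI in 55 Ctrl cells and 23 UMIs in 110 cKO cells (15.7 CPM), 11 of them in a single cell. The highest levels of all lay in the few stroma-like cells, 945 CPM in 13 Ctrl cells (100 of 182 UMIs in 1 cell) and 3707 CPM in 35 cKO cells, and in lymphatic-endothelial-like cells, 112 CPM in 12 Ctrl cells (all 22 UMIs in 1 cell) and 1215 CPM in 104 cKO cells. These small classes are given as values only, chosen after they were seen. Of all Il33 UMIs of the cKO library, stroma-like cells held 19.9%, lymphatic-endothelial-like cells 22.7%, hormone-sensing-like cells 24.7% and both-marker cells 27.2%.

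**Figure D1:**
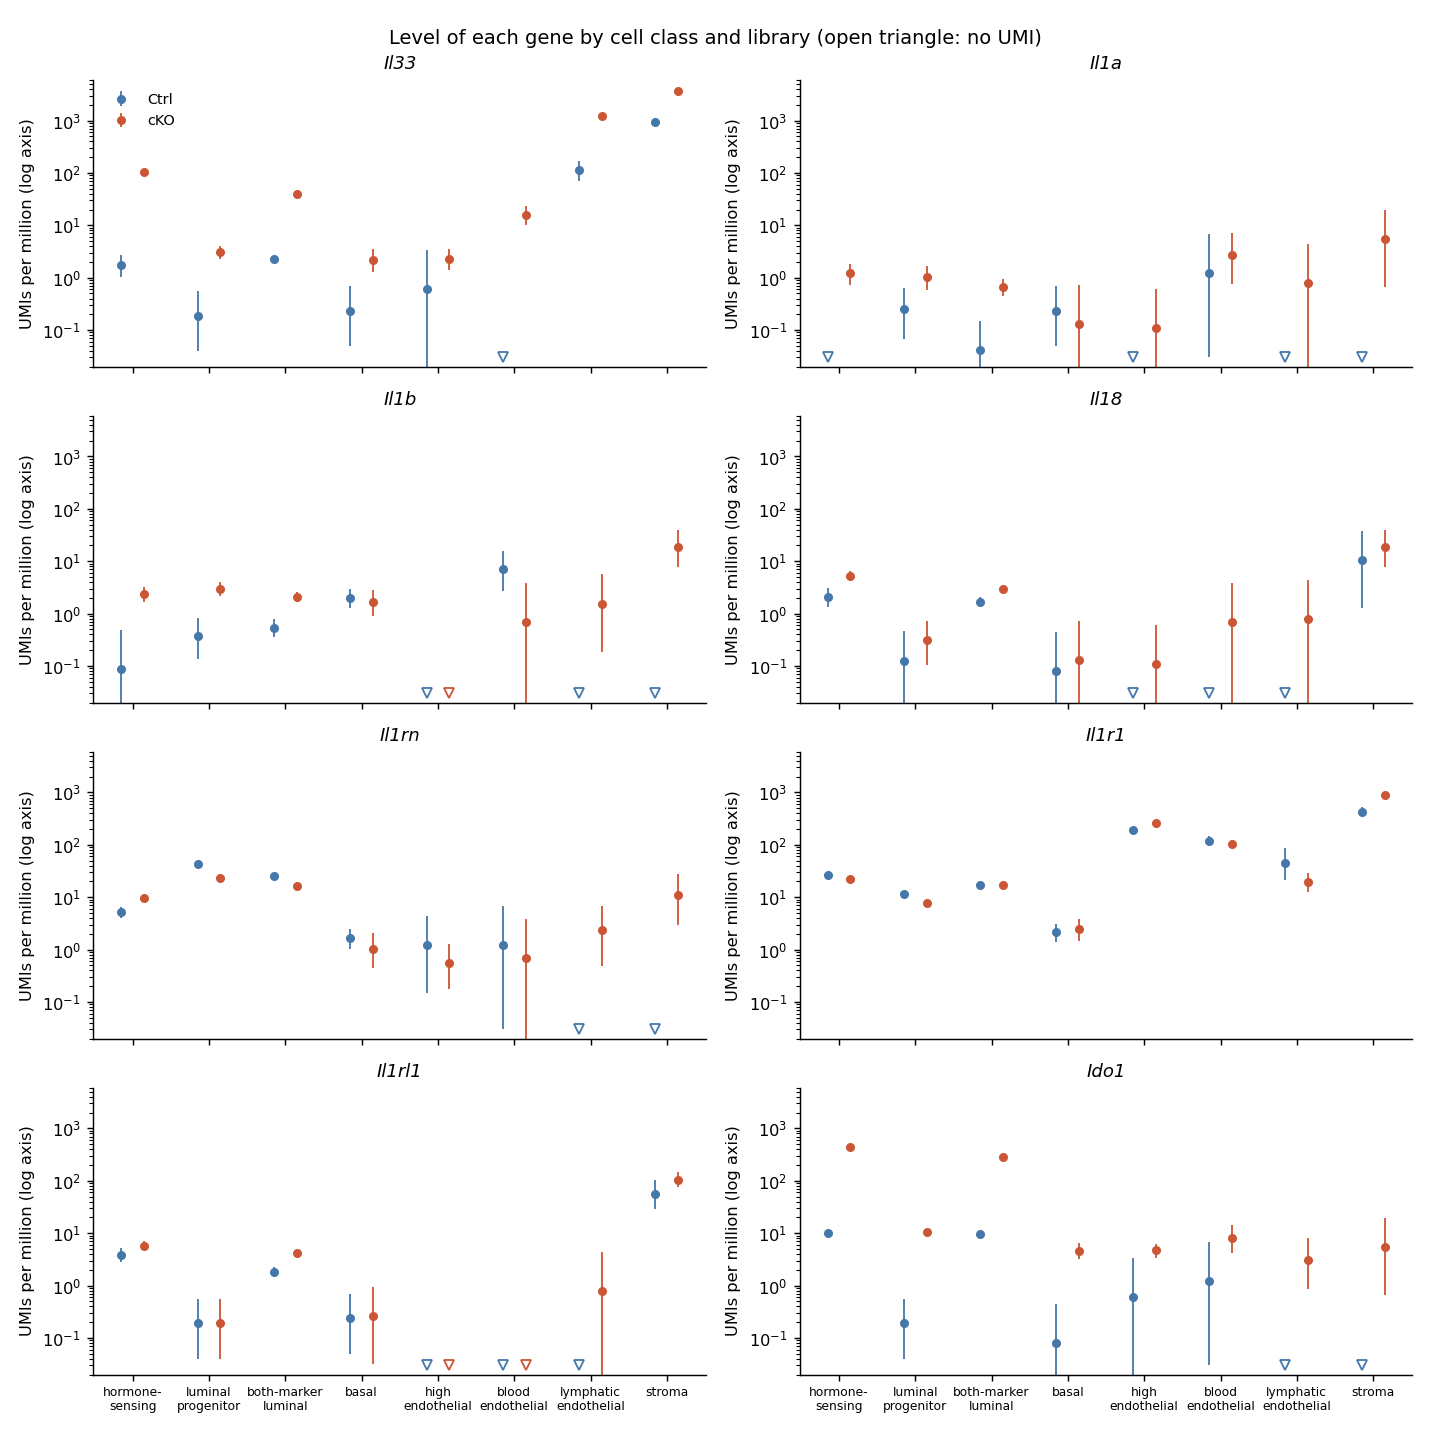
Level of each of the 8 genes in UMIs per 1000000 (log axis) in 8 cell classes, Ctrl in blue and cKO in orange, with 95% Poisson intervals and open triangles where no UMI was counted. Il33 and Ido1 separate the libraries in hormone-sensing-like and both-marker luminal cells, and Il33 is highest in stroma-like and lymphatic-endothelial-like cells.

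Il1a and Il1b, the genes of the IL-1 receptor's agonists, were barely detected. In hormone-sensing-like cells Il1a had no UMI in Ctrl and 20 UMIs in 12 cells in cKO, 1.20 CPM, 4.67-fold above a floor of 3 counts in Ctrl. The lower end of the interval for its ratio was 3.46. Il1b had 1 UMI in Ctrl and 39 UMIs in 21 cells in cKO (2.35 CPM), a ratio of 27.3 with an interval from 4.62 to 1105. In luminal-progenitor-like cells Il1a went from 0.253 to 1.01 CPM and Il1b from 0.379 to 2.97 CPM, but 25 of the 47 Il1b UMIs in cKO lay in 1 cell. The log2 ratio of 2.97 for Il1b was 1.71 without cells with markers of other lineages and 4.44 with the stricter marker gate. In basal-like cells Il1b was at 1.97 CPM (1.27 to 2.91) in Ctrl against 1.68 CPM (0.892 to 2.86) in cKO, with overlapping intervals, and Il1a had 3 and 1 UMIs. After thinning, at most 0.337% of cells in any epithelial class held either gene, so differences in these shares were not detectable at this depth.

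Among epithelial classes Il18 was highest in hormone-sensing-like cells. It was at 2.07 CPM (1.32 to 3.07) in Ctrl against 5.24 CPM (4.2 to 6.46) in cKO in hormone-sensing-like cells, a ratio of 2.54 (1.60 to 4.17). With every cell weighted equally its log2 ratio went from 1.34 to 0.96, which is under 2-fold. The 87 cKO UMIs were spread over 86 cells, unlike those of Il33. Both-marker cells held 1.70 and 2.90 CPM (ratio 1.71, 1.29 to 2.28). Luminal-progenitor-like cells held 2 and 5 UMIs and basal-like cells 1 in each library.

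Il1rn, the antagonist gene, was foremost a gene of luminal-progenitor-like cells. There it stood at 42.4 CPM (39.2 to 45.7) in Ctrl against 23.7 CPM (21.3 to 26.2) in cKO, 1.79-fold lower in cKO, and 283 of 674 against 215 of 1087 cells held it. After thinning, 4.15% of Ctrl cells (2.78 to 5.95) and 2.12% of cKO cells (1.35 to 3.16) held a UMI. Both-marker cells were also lower in cKO, at 25.9 against 16.4 CPM, 1.58-fold. In hormone-sensing-like cells the difference had the other sign, 5.16 CPM (3.94 to 6.65) in Ctrl against 9.45 CPM (8.03 to 11.1) in cKO, a ratio of 1.83 (1.35 to 2.51). Basal-like cells held 1.65 and 1.03 CPM with overlapping intervals.

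Il1r1, the receptor for IL-1α and IL-1β, was spread widely and differed by under 2-fold between the libraries in each epithelial class. Its order of levels ran from the stroma-like cells (431 CPM in Ctrl, 901 CPM in cKO) over high-endothelial-like cells (193 and 257 CPM), the endothelium through which lymphocytes enter tissue, to blood-endothelial-like cells (120 and 105 CPM). Lymphatic-endothelial-like cells (45.9 CPM from 9 UMIs and 19.4 CPM) came next in Ctrl but lay below the hormone-sensing-like cells in cKO, and in both libraries their intervals overlapped with those of the hormone-sensing-like cells. High-endothelial-like cells numbered 48 in Ctrl and 314 in cKO and held 17.2% and 55.0% of each library's Il1r1 UMIs. Among epithelial classes hormone-sensing-like cells were highest at 26.2 CPM (23.3 to 29.3) in Ctrl against 21.8 CPM (19.6 to 24.2) in cKO, followed by both-marker cells at 16.8 and 17.0 CPM, luminal-progenitor-like cells at 11.3 and 7.83 CPM and basal-like cells at 2.13 and 2.45 CPM. The ratio of cKO to Ctrl was 0.833 in hormone-sensing-like cells (0.714 to 0.974), 1.01 in both-marker cells (0.912 to 1.11) and 0.692 in luminal-progenitor-like cells (0.546 to 0.875).

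Il1rl1, the receptor for IL-33, had few UMIs. Hormone-sensing-like cells held 3.87 CPM (2.82 to 5.18, 24 cells with a UMI) in Ctrl against 5.78 CPM (4.68 to 7.06, 46 cells) in cKO, a ratio of 1.49 (1.04 to 2.18). When every cell was weighted equally the log2 ratio was -0.08, so the difference did not hold under that weighting. Both-marker cells held 1.8 and 4.10 CPM, and the luminal-progenitor-like and basal-like cells at most 3 UMIs in a library. Stroma-like cells held 57.1 CPM in Ctrl, from 3 of 13 cells, and 106 CPM in cKO, from 3 of 35 cells. Markers of cells known for ST2 were looked for in the same gate. All 7 listed mast cell markers were at 0 in Ctrl hormone-sensing-like cells and 6 of 7 in cKO. The T and NK cell genes Cd3e, Cd3d, Cd3g and Nkg7 were at 0 in both, while Trbc2 was at 8.26 CPM in Ctrl against 39.5 CPM in cKO. Cd8a, Cd4 and Gzma of the T and NK list are not given, so the genes at 0 are a part of that list. Of 6 listed genes of group 2 innate lymphoid and regulatory T cells, Foxp3 was at 0 in both libraries and Il7r in cKO. Their summed level was 560 CPM in Ctrl and 215 CPM in cKO, of which Arg1 gave 407 CPM in Ctrl and Gata3, also a luminal gene, 103 CPM in cKO. The part of such cells in the Il1rl1 values was not tested.

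Ido1 was higher in cKO over a large share of the hormone-sensing-like cells. It was at 10.1 CPM (8.33 to 12.1, 117 UMIs) in Ctrl against 451 CPM (441 to 461, 7484 UMIs) in cKO, a ratio of 44.8 (37.3 to 54.2). Of 1211 cKO cells 645 (53.3%) held Ido1, of 519 Ctrl cells 50 (9.63%). Thinned to 1000 UMIs, the shares were 23.0% (20.6 to 25.5) and 0.580% (0.120 to 1.69), beside 0.926% of cKO basal-like cells and 0.639% of cKO high-endothelial-like cells (median depths 12404 and 20492 UMIs for the hormone-sensing-like cells of cKO and Ctrl, 7251 and 26457 UMIs for the other 2 classes). Both-marker cells were at 9.64 CPM in Ctrl against 288 CPM in cKO. They held 62.8% of the Ido1 UMIs of the cKO library and the hormone-sensing-like cells 34.9%.

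Free RNA from burst cells can give a low level of a gene in every class. The other classes of cKO were therefore set beside a gene counted almost only in high-endothelial-like cells. Glycam1, a secreted mucin gene of high endothelial cells, had a library mean of 14286 CPM in cKO. It was at 1.12% of that mean in luminal-progenitor-like cells, 1.37% in basal-like cells and 1.26% in blood-endothelial-like cells of cKO. Hormone-sensing-like cells of cKO were at 1.55% and both-marker cells at 0.961%. Glycam1 stood higher, at 516 CPM, in lymphatic-endothelial-like cells of cKO, and at 170 CPM in stroma-like cells. On the same scale Ido1 was at 4.97% of its library mean in luminal-progenitor-like cells (10.5 CPM, against 0.190 CPM in Ctrl). It was at 2.19% in basal-like cells (4.64 CPM), 2.22% in high-endothelial-like cells and 3.86% in blood-endothelial-like cells. In the high-endothelial-like cells a single cell held 25 of the 43 Ido1 UMIs. Of the 167 Ido1 UMIs in cKO luminal-progenitor-like cells, 84 lay in 23 cells of cluster 5 (136 CPM), the cluster with most cKO both-marker cells. The 1048 luminal-progenitor-like cells of cluster 2 stood at 5.37 CPM. Il33 was at 4.54% of its own mean in luminal-progenitor-like cells and at 3.21% in the basal-like class, 3.38% in the high-endothelial-like and 23.0% in the blood-endothelial-like class. A single cell held 11 of the 21 Il33 UMIs of the high-endothelial-like class, and another held 11 of the 23 of the blood-endothelial-like class. The part of free RNA in these values, those of Glycam1 included, was not tested. The ratios of Il33 and Ido1 in luminal-progenitor-like and basal-like cells are read with that limit.

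**Figure D2:**
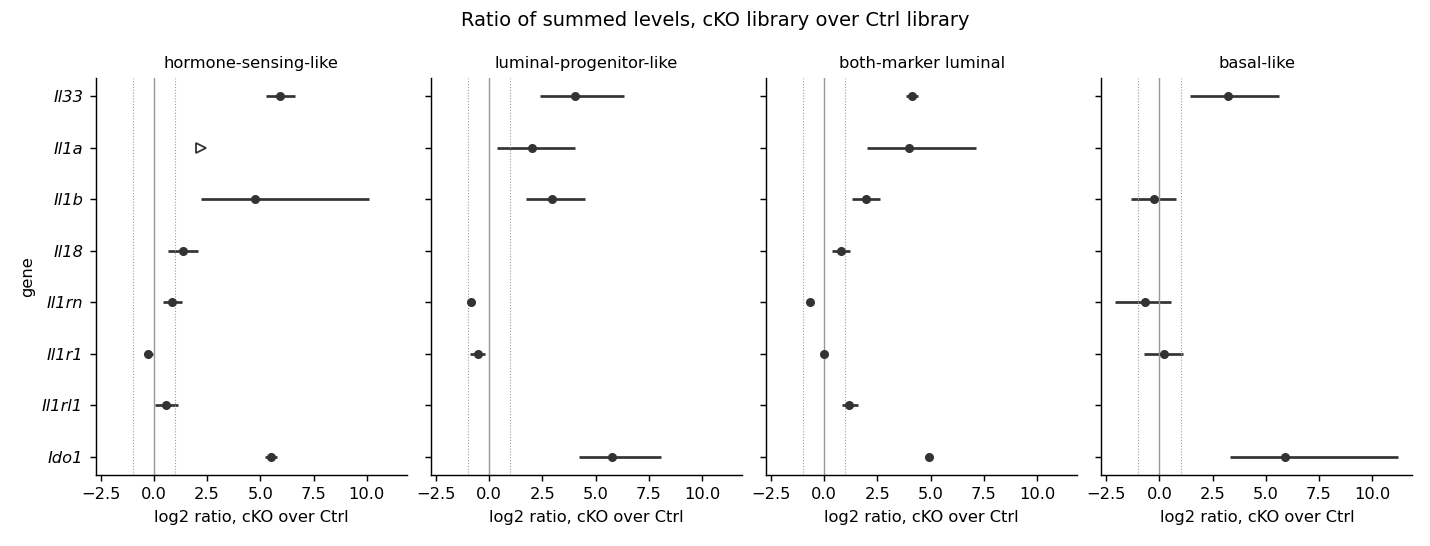
Log2 ratio of summed levels, cKO over Ctrl, for the 8 genes in 4 epithelial classes, with 95% conditional binomial intervals and dotted lines at 2-fold; the open arrow is a lower bound and genes under 20 UMIs are left out. Il1rn lies right of 0 in hormone-sensing-like cells and left of 0 in luminal-progenitor-like and both-marker luminal cells.

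In hormone-sensing-like cells all 8 members had at least 20 UMIs over both libraries, and 5 were higher in cKO by 2-fold or more (Il33, Il1a, Il1b, Il18 and Ido1) and 0 lower by that much. Of the 12110 genes counted there, 8.41% were higher and 7.32% lower by 2-fold or more, and the median log2 ratio was 1.78 over the members and -0.05 over all genes, with sums of 0, such as that of Il1a in Ctrl, set to the floor of 3 counts. In luminal-progenitor-like cells 6 members were counted, of which 4 were higher and 0 lower, beside 2.65% and 4.12% of 11839 genes. In basal-like cells 5 members were counted, of which 2, Il33 and Ido1, were higher and 0 lower, beside 2.98% and 3.43% of 11249 genes. Several members reached 20 UMIs only through the cKO library, and the genes were chosen on these values, so nothing is read from these counts. With at least 50 UMIs asked for, 3 members were higher in hormone-sensing-like and 0 in basal-like cells, and without cells carrying markers of other lineages 2 in luminal-progenitor-like cells.

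Motile cilia genes marked the luminal cells in which Il33 was highest. Motile cilia are beating cell projections that are not a usual feature of mammary epithelium. Of 14 listed cilia markers, at least 3 were detected in 35 Ctrl and 261 cKO hormone-sensing-like cells, and Il33 was at 1.65 CPM in those Ctrl cells and 264 CPM in those cKO cells, against 1.73 and 36.9 CPM in the hormone-sensing-like cells with fewer. In cKO this was a ratio of 7.17 (6.42 to 8.01). With at least 5 markers, a limit added after the data were seen because Tppp3 and Mlf1 were widespread, 120 cKO hormone-sensing-like cells stood at 403 CPM (376 to 431), 10.9-fold above those with under 3. They were 9.91% of the class and held 49.2% of its Il33 UMIs with 12.6% of all its UMIs. Only 1 Ctrl hormone-sensing-like cell reached 5 markers, with no Il33 UMI. Of the 215 luminal Ctrl cells of all classes with at least 3 markers, 200 held Tppp3 and 179 Mlf1. Only 12 of them held Foxj1, 4 Dynlrb2 and 4 Pifo. Among the 708 such cells of cKO, 511 held Tppp3, 607 Mlf1, 203 Foxj1, 253 Dynlrb2 and 261 Pifo. The libraries thus differed in which markers made up the count.

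Ido1 was lowest in the cells in which Il33 was highest. From 0, 1 and 2 over 3 to 4 to 5 or more markers, Il33 in cKO hormone-sensing-like cells stood at 18.1, 44.2, 52.5, 158 and 403 CPM. Ido1 in the same cells stood at 516, 484, 667, 335 and 90.7 CPM. The median depth of these cells ran from 10197.5 UMIs with no marker to 14927 UMIs with 5 or more. After thinning, the expected share with Il33 was 1.64% with no marker and 29.0% with 5 or more, and that with Ido1 25.2% and 6.41%. Both-marker cells of cKO with 5 or more markers (179 cells) held 146 CPM of Il33, against 13.7 CPM in those with no marker, and 207 against 273 CPM of Ido1. In luminal cells as a whole 303 of 3780 in cKO (8.02%) and 7 of 2135 in Ctrl (0.328%) had 5 or more markers.

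**Figure D3:**
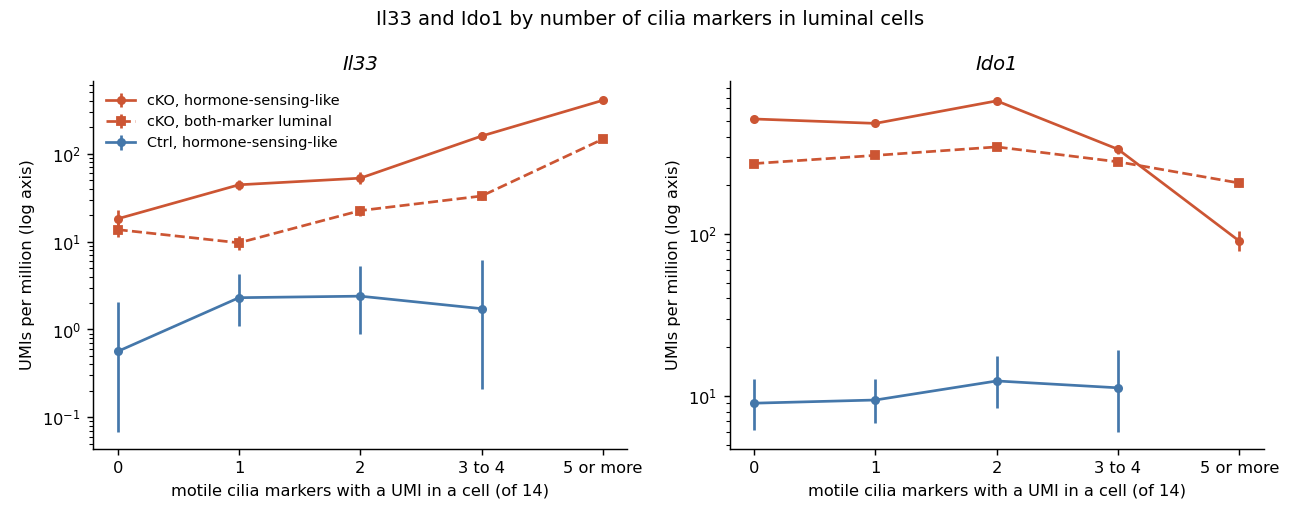
Level of Il33 (left) and Ido1 (right) in UMIs per 1000000 (log axes) against the number of the 14 cilia markers with a UMI in a cell, with 95% Poisson intervals. In cKO hormone-sensing-like cells Il33 goes from 18.1 to 403 CPM and Ido1 from 516 to 90.7 CPM, while Ctrl hormone-sensing-like cells stay at or under 2.39 CPM of Il33.

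The other members differed less with the cilia markers. Between cKO hormone-sensing-like cells with at least 5 and under 3 markers Il1r1 was at 24.0 and 21.6 CPM, Il18 at 6.24 and 5.0 CPM and Il1rn at 14.9 and 9.16 CPM, the last a ratio of 1.62 (1.05 to 2.44). At the limit of 3 markers the ratio of Il1rn was 1.11 (0.777 to 1.57) in cKO and 2.86 (1.48 to 5.23) in Ctrl. Il1rl1 was at 1.92 CPM (4 UMIs) in the cells with cilia genes and 6.02 CPM in those without, a ratio of 0.319 (0.0846 to 0.853). That value did not hold at the limit of 3 markers, where Il1rl1 had a ratio of 0.864 (0.524 to 1.38) in cKO and 3.49 (1.68 to 6.83) in Ctrl, and cKO cells with 3 to 4 markers held 7.71 CPM. The Ctrl ratio rests on 13 UMIs in 2 of 35 cells with at least 3 cilia markers, and its interval does not cover the spread between cells. Other listed markers also differed between cKO cells with at least 5 and under 3 cilia markers. Glycam1 was at 535 CPM in the cells with at least 5 cilia markers and 181 CPM in those with under 3, and Ccl21a, a lymphatic endothelial gene, at 59.5 and 13.6 CPM. The listed lymphatic markers Lyve1, Mmrn1, Flt4 and Reln were at 0 in the cells with cilia genes, while Prox1 and Marco are not given. Of the fibroblast list, Col1a1, Col1a2, Col3a1, Lum, Dpt and Mfap5 were also at 0 there, and Pdgfra is not given. Dcn was at 154 CPM, against 354 CPM with under 3 markers. The genes at 0 are thus a part of each list. The part of other cells or free RNA in the Il33 of these cells was not tested.

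The clusters were made from the same cells and are given as a description. In cluster 11, 60.2% of the 181 cKO hormone-sensing-like cells had at least 5 cilia markers, and Il33 was at 446 CPM and Ido1 at 72.9 CPM. In cluster 10, 0.735% of 952 cells had them, and Il33 was at 33.8 CPM and Ido1 at 546 CPM. The split was not complete. Of 39 such cells in cluster 5, 2.56% had them, with Il33 at 125 CPM and Ido1 at 496 CPM. Of 20 in cluster 9, 15% had them, with Il33 at 73.0 CPM and Ido1 at 137 CPM. Cluster 3, which held the Ctrl hormone-sensing-like cells, was at 1.64 and 9.59 CPM. The level of both genes in cKO without most of the cells with cilia genes was thus above that of Ctrl.

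Within single cells Il33 and Ido1 were detected together less often than their separate shares give. Of 1084 cKO hormone-sensing-like cells thinned to 5000 UMIs, 180 held Il33 and 477 held Ido1, and 43 held both where 79.2 were expected from the single shares. Ido1 was found in 23.9% of the cells with Il33 and 48.0% of the rest. In cKO both-marker cells 63 held both where 66.4 were expected. Il1rn and Ido1 met in 25 cells against 23.3 expected, and Il1r1 and Ido1 in 47 against 47.5.

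The genes whose levels were most like those of a member over 10 sums (5 classes in 2 libraries, log2 of CPM plus 1) are named with Pearson's r as a description, since the sums share libraries. For Il33 they were Cxcl13 (0.96), Gnb5 (0.95) and Ido1 (0.93). Cxcl13, a chemokine gene for B cells, stood at 3.01 CPM in Ctrl against 18.5 CPM in cKO hormone-sensing-like cells. For Ido1 they were Sprr1a (0.97), Aoc1 (0.97) and Clca1 (0.96). Sprr1a, a gene of the cornified envelope, stood at 81.1 then 1514 CPM in hormone-sensing-like cells, and Aoc1, a diamine oxidase gene, at 12.0 and 127 CPM. The nearest genes were Arhgef10l for Il1rn, Fer1l4 for Il18 (0.99 each), Ankrd33b for Il1r1 (0.99), Bmp3 for Il1rl1 (0.98) and Gal for Il1b (0.80). Il1a had 82 UMIs in cKO and was under the 200 UMIs asked for.

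For the list counts here and below, the background is the share of all counted genes at least 2-fold higher and lower in cKO. It was 8.41% and 7.32% in hormone-sensing-like, 2.65% and 4.12% in luminal-progenitor-like and 2.98% and 3.43% in basal-like cells. The lists are short and were chosen with earlier results known, so their counts are descriptions. Of the 5 further ligands of the family, the IL-36 genes and Il1f10, 0 could be counted in hormone-sensing-like cells. The further receptors, co-receptors and decoys of the family showed no gene past 2-fold in hormone-sensing-like cells (0 of 6 counted). Il18r1, the binding chain of the IL-18 receptor, was at 62.0 CPM in Ctrl against 88.5 CPM in cKO there, and its partner Il18rap at 4.82 and 5.90 CPM. The decoy gene Il1r2 was at 1.98 and 1.45 CPM, Sigirr, which dampens IL-1 signalling, at 15.1 and 10.1 CPM, and Il18bp, which traps IL-18, at 8.17 and 8.55 CPM. Il1rap, the chain that both Il1r1 and Il1rl1 need to signal, had 8 UMIs in Ctrl and 3 in cKO hormone-sensing-like cells. Luminal-progenitor-like cells held it at 10.5 and 9.85 CPM, and basal-like cells at 7.80 and 3.74 CPM. In basal-like cells 1 of 3 receptor genes counted, Il18r1, was higher (1.18 and 2.83 CPM) and 1, Il1rap, lower.

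Of 11 adaptor and kinase genes counted in hormone-sensing-like cells 0 were at least 2-fold higher in cKO and 2 at least 2-fold lower. Irak3, a kinase-like brake on MyD88 signalling, stood at 93.1 CPM in Ctrl against 14.8 CPM in cKO hormone-sensing-like cells. Both-marker cells held 65.9 and 14.4 CPM. In luminal-progenitor-like cells Irak3 was at 10.6 and 13.1 CPM. Tab1 was at 5.42 then 2.65 CPM in hormone-sensing-like cells. Myd88 was at 19.9 and 21.4 CPM, Irak1 at 41.0 and 38.7 CPM and Irak4 at 11.1 and 9.70 CPM. Luminal-progenitor-like cells had 0 of 11 past 2-fold in either direction, and basal-like cells had 1 of 11 higher, Irak2 at 0.551 and 1.68 CPM (7 and 13 UMIs).

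Of 12 genes of processing and release counted in hormone-sensing-like cells 4 were higher by 2-fold or more in cKO and 1, Aim2 (15 and 8 UMIs), was lower. Casp1, the protease that matures IL-1β and IL-18, was at 0.602 and 3.25 CPM, Casp4, the caspase of the non-canonical inflammasome, at 6.11 and 20.5 CPM, and Gsdmd, the pore former, at 1.89 and 4.40 CPM. S100a13, which takes part in the export of IL-1α, was at 119 and 243 CPM. Luminal-progenitor-like and basal-like cells had 0 of 10 and 0 of 11 counted genes past 2-fold.

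Of 17 genes known to answer to IL-1 counted in hormone-sensing-like cells, 3 were higher and 5 lower by 2-fold or more. Csf3, the granulocyte colony factor gene, stood at 24.9 CPM in Ctrl against 122 CPM in cKO, and Csf2 at 0.172 and 5.36 CPM, with 49 of its 89 cKO UMIs in 1 cell. The acute-phase genes Saa1 and Saa2 were lower in cKO, at 111 and 3.91 CPM and at 35.2 and 3.19 CPM. A single cell held 52 of the 53 cKO Saa2 UMIs and 179 of the 409 in Ctrl. Among luminal-progenitor-like cells the list had 3 of 16 higher and 2 lower. There the neutrophil chemokine genes Cxcl1 and Cxcl2 stood at 1449 and 3823 CPM and at 620 and 1925 CPM, and Ptgs2, the inducible cyclooxygenase gene, at 90.8 and 26.5 CPM. Among basal-like cells the list had 4 of 14 higher and 1 lower, with Csf3 at 81.8 and 249 CPM, Cxcl2 at 254 and 710 CPM, Nfkbia at 437 and 1199 CPM and Ptgs2 at 42.5 and 12.8 CPM.

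Genes that act downstream of IL-33 in type 2 responses gave few values in the epithelium. Of 5 counted in hormone-sensing-like cells 2 were higher in cKO and 1 lower. Il13 had 0 UMIs in Ctrl and 106 in cKO, and all 106 lay in 1 cell, so this value describes a single cell. Ccl17 was at 0.860 and 3.19 CPM, Arg1 at 407 and 99.4 CPM and Areg, the amphiregulin gene, at 2803 and 4785 CPM. Il4 and Il5 had no UMI in the hormone-sensing-like cells of either library.

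Of 11 genes of tryptophan transport, breakdown and response counted beside Ido1 in hormone-sensing-like cells, 2 were higher (Afmid and Cyp1a1) and 1 lower (Cyp1b1). Kynu, Kmo, Haao and Qprt, whose products act after Ido1 in the pathway, had 0 UMIs in both libraries, and Tdo2, the liver-type counterpart of Ido1, had 1 and 2. Ido2, the paralog of Ido1, was at 1.98 and 3.19 CPM, Kyat3 at 10.2 and 5.30 CPM and Wars, the tryptophanyl-tRNA synthetase gene, at 50.3 and 26.5 CPM. Cyp1a1 and Cyp1b1, targets of the aryl hydrocarbon receptor, which kynurenine can bind, each had under 50 UMIs over both libraries in hormone-sensing-like cells. On these few UMIs they went opposite ways there, at 0.688 and 2.23 CPM and at 1.63 and 0.602 CPM. Luminal-progenitor-like cells held Cyp1a1 at 11.4 and 4.36 CPM and Cyp1b1 at 132 and 64.9 CPM, and basal-like cells held them at 3.23 and 0.644 CPM and at 151 and 41.9 CPM.

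Ifng, the gene of interferon gamma, had no UMI in hormone-sensing-like cells of either library. Of 19 genes of its pathway counted there 5 were at least 2-fold higher in cKO and 1 at least 2-fold lower. Over all genes counted there the shares were 8.41% and 7.32%. Irf1 was at 31.7 and 79.2 CPM, Gbp2 at 20.4 and 64.6 CPM and Cd274, the PD-L1 gene, at 1.29 and 5.0 CPM, whereas Iigp1 was at 67.2 and 25.2 CPM. Luminal-progenitor-like cells had 1 of 17 higher, Irf1 at 23.5 CPM in Ctrl with a ratio of 2.13. Among basal-like cells the list had 3 of 18 higher and 1 lower, with Irf1 at 42.1 and 109 CPM, Socs3 at 194 and 425 CPM and Igtp at 12.1 and 5.03 CPM. Irf1 was thus past 2-fold in all 3 of these classes, and so was Ido1. The ratio of Ido1 was 58.9 among basal-like cells (1 UMI in Ctrl, 36 in cKO). It was 55.6 for the luminal progenitor class (3 and 167 UMIs) and 44.8 for the hormone-sensing class (117 and 7484 UMIs). The first 2 of these ratios rest on very few Ctrl UMIs and carry the free RNA limit given above. A link between Irf1 and Ido1 was not tested.

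**Figure D4:**
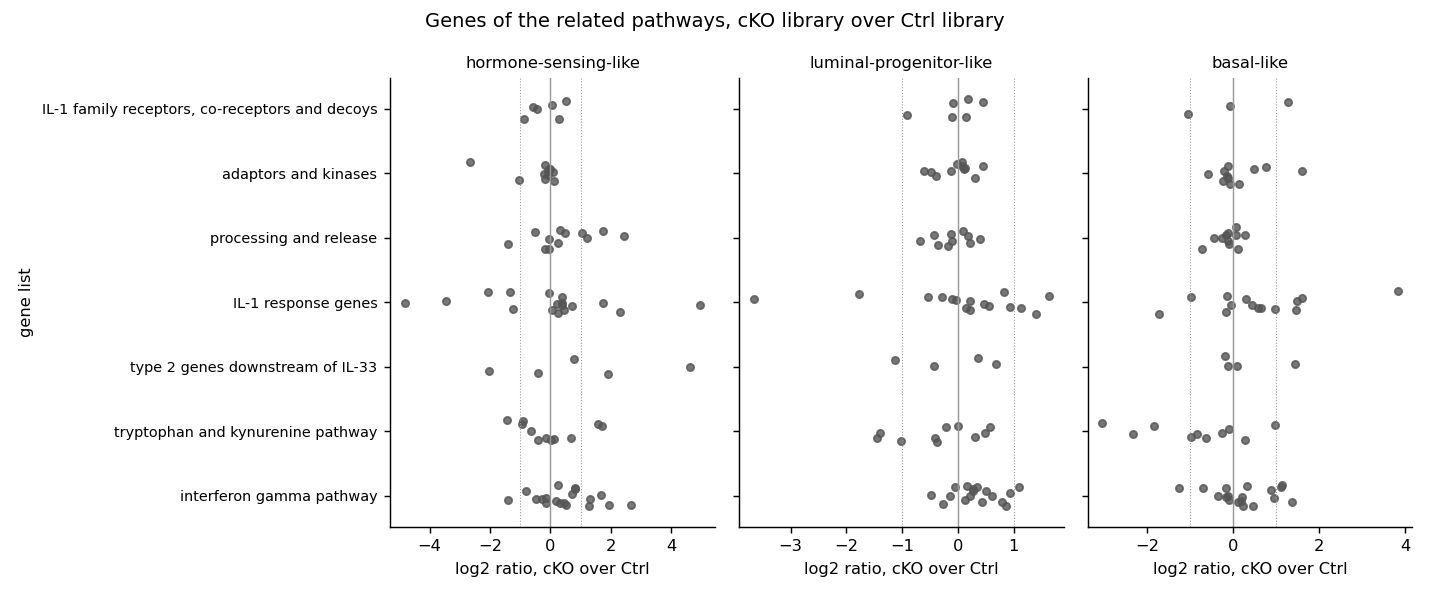
Log2 ratio of cKO to Ctrl for each gene with at least 20 UMIs in 7 lists related to the members, by cell class (1 point per gene, spread vertically for sight, dotted lines at 2-fold). In hormone-sensing-like cells the receptor list stays within 2-fold, while IL-1 response genes lie on both sides, with Saa1 and Saa2 farthest left.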

How the data were processed

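The deposited values were UMI counts per gene and cell, made by the authors from droplet 3′ libraries with Cell Ranger 2 on mm10 per the submitters' processing notes, while the file headers give software version 3.0.0. Of 4237 Ctrl and 6257 cKO barcodes, cells with at least 500 genes and at most 10% mitochondrial UMIs were kept (3416 and 5493), and Scrublet's calls in scanpy 1.11.5 (25 and 58 cells) were removed as doublets. Cells were put into classes by mean log-normalised marker scores, whose cutoffs were set after the score distributions were seen, and clustered with leidenalg 0.10.2 at resolution 0.5. For each class of a library the counts of its cells were added up and divided by their total. Ratios needed at least 20 UMIs over both libraries and were called at 2-fold. With 1 library per group no test between groups was made, and the exact Poisson, conditional binomial and Clopper-Pearson intervals cover counting error only. Shares of cells were compared after thinning each cell to 1000 UMIs, with shallower cells left out (2 Ctrl and 6 cKO hormone-sensing-like cells). The ratio step was run on simulated class sums with known folds. These sums held counting error alone, so they do not bear on genes whose UMIs lie in few cells.

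The members, marker lists and pathway lists were chosen with earlier results of these data known. Named were the members, the 3 genes most like each, and from each pathway list up to 4 genes per class with the largest ratio at 50 UMIs or more, plus receptors, decoys and adaptors. Further genes (those at 0 UMIs and Myd88, Ido2, Areg, Ccl17, Casp1, Gsdmd and Cd274 among them) were named after their values were seen, as were the classes under 50 cells. Levels are not compared between genes. The alternatives covered scaling, cell and doublet filters, gates, clusters, cell weighting, left-out cells, thinning and thresholds. Sequences were read from RefSeq tables (GRCm38.p6) and GENCODE M21.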

Additional observations from a re-analysis of the deposited data

Results flagged for a closer look

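The ratio of cKO to Ctrl for Il1rn, the antagonist gene, had opposite signs in different luminal classes. Its log2 ratio was 0.87 in hormone-sensing-like cells and -0.84 in luminal-progenitor-like cells. Against both-marker luminal cells the values were 0.87 and -0.66. With 1 library per group the difference between classes was not tested.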

How the results depend on the processing

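No paired analysis was possible because each group had 1 library. No direction of a called ratio reversed. The log2 ratio of Il33 in hormone-sensing-like cells, 5.90, was 6.63 with the stricter cell filter, 8.77 without the 1% of cells with the most Il33 and 4.41 without cells with cilia genes. The value of 8.77 rests on very few Ctrl UMIs, because few Ctrl cells held Il33. The log2 ratio of Ido1 in hormone-sensing-like cells, 5.48, was 6.03 without the top 1% of cells and 5.91 without cells with markers of other lineages. Il1rn went from 0.87 to 1.45 in hormone-sensing-like cells when classes were taken by cluster, and from -0.84 to -1.11 in luminal-progenitor-like cells without cells with markers of other lineages. Members at least 2-fold higher fell in number from 5 to 3 in hormone-sensing-like cells at a minimum of 50 UMIs, from 4 to 2 in luminal-progenitor-like cells without other lineages' markers, and from 2 in basal-like cells to 1 with the stricter cell filter, 1 without other lineages' markers and 0 at a minimum of 50 UMIs. Members lower went from 0 to 1 in luminal-progenitor-like cells without other lineages' markers and at 1.5-fold, and from 0 to 1 in basal-like cells at 1.5-fold. The cause was not tested. Scaling by trimmed means shifted all log2 ratios by 0.05 to 0.11 in luminal classes and -0.05 in basal-like cells. The limit of 5 cilia markers, the share expected over all thinnings and the co-detection at 5000 UMIs were chosen after seeing the data.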
